A study of Mus musculus with 4 samples.

Results

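The fibrous sheath genes were taken from the RNA-seq of postnatal day 24 mouse testes as the entries carrying the symbols Akap3, Akap4, Ropn1, Ropn1l, Spa17, Cabyr, Fsip1 and Fsip2. Expression values for 7 of these 8 genes were used, out of 22311 gene symbols, and the expression of Fsip2 was not analysed here. The mutant group held 2 samples of genotype rfx2-/-, in which exons of the DNA binding domain of the transcription factor RFX2 were replaced by a neomycin-resistance cassette in every cell of the animal. The control group held 2 samples that the sample labels call wild type and the study's methods call heterozygous, so a control animal may carry the targeted allele on 1 chromosome. The labels give the strain of all 4 samples as DBA, whereas the methods describe a mixed background of 129/s6 and C57BL/6 derived from a single targeted embryonic stem cell clone. RNA came from whole testes of males, and no other allele or treatment is named for either group. The values are FPKM, the fragments of a gene divided by its length and by the total of mapped fragments, which the authors estimated for each gene in each sample.

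The fibrous sheath is the cytoskeletal sleeve of longitudinal columns and ribs that surrounds the axoneme in the principal piece of the sperm tail. AKAP4 and AKAP3 are its main scaffold proteins, and both bind the regulatory subunits of protein kinase A, the kinase through which cyclic AMP drives sperm motility. Ropporin (Ropn1), its relative Ropn1l, Spa17 and Cabyr carry a domain like the one with which those regulatory subunits dock onto AKAP proteins, and the FSIP proteins were found as AKAP4 partners. The RNAs of both scaffolds are made in haploid spermatids, and the sheath itself is built while these cells elongate.

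The sequences just upstream of the scaffold genes are shown because Akap3 and Akap4, the pair with the widest spread between the samples, carry an identical stretch there. Promoter windows of 300 bases, 250 before and 50 after an annotated start, were taken from RefSeq (GRCm38.p6). The most upstream start of each gene was used. Windows of 6 listed genes were searched, Akap3, Akap4, Ropn1, Ropn1l, Spa17 and Fsip2, while Cabyr and Fsip1 were not searched. Capitals mark a run of 20 bases that the windows of Akap3 and Akap4 have in common, and the last 100 bases before the start are given 5′ to 3′ on the strand of the gene, Akap3 from chr6:126852998-126853097 (plus strand) and Akap4 from chrX:7067415-7067514 (plus strand).
Akap3: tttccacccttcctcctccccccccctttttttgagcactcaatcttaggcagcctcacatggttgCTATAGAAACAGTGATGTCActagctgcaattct
Akap4: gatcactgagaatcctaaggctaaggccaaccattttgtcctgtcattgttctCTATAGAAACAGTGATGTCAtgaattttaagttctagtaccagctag
The shared run lay from -34 to -15 in Akap3 and from -47 to -28 in Akap4, counted from the start with -1 as the last base before it. Among 15 pairs of these windows compared on both strands, the longest run shared by any other pair was 10 bases. Of all 32851 RefSeq windows, 2 held the run on either strand, those of Akap3 and Akap4. The run ends in TGATGTCA, which 3.62% of all windows held on either strand, and the Akap3 window held those letters a second time from -1 to 7. The run was found by comparing the windows and is a description of sequence, not a binding site.

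The ropporin pair is shown beside them because the paralogs, which belong to a single protein family, did not share such a stretch. The stretches are Ropn1 from chr16:34651111-34651210 (plus strand) and Ropn1l from chr15:31453690-31453789 (minus strand). Capitals in Ropn1l mark GTTGCC, the letters of an arm of the X-box, the element that RFX factors bind, and Ropn1 has no capitals.
Ropn1: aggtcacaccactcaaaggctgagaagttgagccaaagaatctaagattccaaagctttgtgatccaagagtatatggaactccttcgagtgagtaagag
Ropn1l: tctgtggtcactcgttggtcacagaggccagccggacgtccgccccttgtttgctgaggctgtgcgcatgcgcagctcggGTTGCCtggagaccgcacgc
The longest run that the windows of Ropn1 and Ropn1l had in common was 10 bases. GTTGCC occurred in 12.5% of all windows on either strand, and among the 6 windows searched in that of Ropn1l alone, from -20 to -15. The standard X-box consensus given in the study has a gap of up to 3 bases. It was not matched without mismatch in any of the 6 windows, against 1.53% of all windows. With 1 mismatch allowed, Ropn1l had a match from -20 to -8 on the opposite strand that overlaps GTTGCC, and 11.3% of all windows had one. The study predicted its sites otherwise, with a weight matrix over longer promoter regions, so its predictions cannot be compared with these matches. TGACGTCA, the full cyclic AMP response element, was in none of the 6 windows and in 1.79% of all windows.

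In NCBIM37 (mm9), the build to which the authors aligned their reads, the genes lie on different chromosomes apart from the FSIP genes, which are both on chromosome 2. Akap3 spans chr6:126803116-126824325 and Akap4 spans chrX:6644645-6655735, and their longest coding sequences are similar, with 2592 and 2547 bases. Ropn1 (chr16:34650007-34678704), Ropn1l (chr15:31370965-31383444) and Spa17 (chr9:37410886-37421199) are short genes, with 636, 687 and 447 coding bases. Fsip1 spans chr2:118030624-118082702 and has 1305 coding bases. No other annotated gene shared exon bases with any of them. The longest run of bases common to the transcripts of any pair of the 7 genes was 17, between Akap3 and Akap4, and for the paralogs Ropn1 and Ropn1l it was 14.

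In the control testes the mean FPKM of the sheath genes ran from 29.5 ± 4.60 for Fsip1 to 1063 ± 175 for Ropn1l (SD, n = 2). Ropn1l had an FPKM of 1187 in control 1 and 939 in control 2, rank 15 among all genes in both of them. Spa17 followed with 659.7 and 585. Ropn1, Akap3, Cabyr and Akap4 formed a middle group, with 214 and 184 for Ropn1, 173 and 153 for Akap3, 164 and 149.7 for Cabyr, and 153 and 142 for Akap4. Fsip1 was the lowest, with 32.7 and 26.2. Akap3, Cabyr and Akap4 overlapped between the control samples, so their order was not larger than the spread, while the ranges of the other neighbours did not overlap. The bounds of the authors' confidence intervals lay between 1.29% and 7.39% from the value for every gene and sample, the widest for Fsip1. Ropn1l and Spa17 together held between 69.9% and 81.8% of the summed FPKM of the 7 genes.

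**Figure D1:**
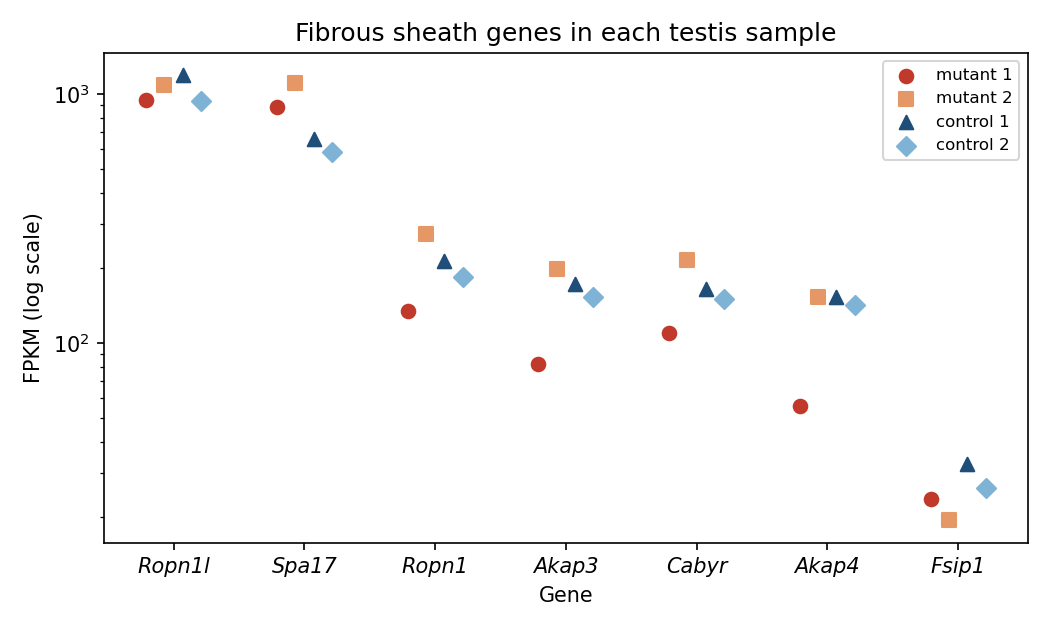
FPKM of the 7 fibrous sheath genes (log axis) in mutant 1, mutant 2, control 1 and control 2, each point 1 sample, with genes ordered by the control mean. Mutant 1 lies well below the other samples for Ropn1, Akap3, Cabyr and Akap4, and both mutant samples lie above both control samples for Spa17.

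As a check of the labels, the FPKM of Rfx2 itself was 123 in control 1, 89.4 in control 2, 36.7 in mutant 1 and 39.8 in mutant 2. It fell by 1.43 on the log2 scale (standard error 0.19, adjusted p = 0.00617 from limma), and without control 1 the adjusted p was 0.0628 from limma. Samples of the same genotype differed over the 12985 genes tested with a standard deviation of 0.47 (mutant) and 0.35 (control) on the log2 scale. Mutant 1 stood apart in the markers of late germ cells. The summed FPKM of 8 elongating spermatid markers was 1224 in mutant 1, 6332 in mutant 2, 7683 in control 1 and 5140.4 in control 2, and all 8 were lowest in mutant 1. That list holds protamine and transition protein genes, whose RNA the study found unchanged in mutants by RT-PCR. That RT-PCR was read on gels, from testes of day 24 or of adults, so it is not a like measure to these FPKM sums. The study reported elongating spermatids as absent from mutant testes at ages later than that of these samples. Whether any sample here held such cells was not tested, and these sums of RNA are not counts of cells. The 7 round spermatid markers with values summed to 597 in mutant 1 and to between 671 and 902 in the other samples, and 5 of them were lowest in mutant 1. The study reported delayed spermatogenesis, with fewer round spermatids, in some mutant animals at an earlier age. Whether this holds for mutant 1 is not stated and was not tested. The 8 pachytene spermatocyte markers summed to between 1392 and 1591, the 6 spermatogonial markers to between 29.7 and 47.0, and the 6 Sertoli cell markers to between 439 and 664. These lists of earlier germ cells and of Sertoli cells had no member that was lowest in mutant 1. The sums ran from 135 to 418 for Leydig, 61.3 to 89.3 for peritubular, 19.6 to 36.4 for macrophage and 46.9 to 195 for blood markers. No marker with a value was at 0 in any sample. None of any of these lists passed the test between genotypes, which 2.83% of all genes tested passed. In whole testes, fewer cells of a type and less RNA per cell cannot be told apart.

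Whether the sheath genes depend on RFX2 was asked by comparing mutant with control testes. None of the 7 genes was called lower or higher at an adjusted p under 0.05 in limma with Benjamini-Hochberg adjustment, while 2.52% of all genes tested were called lower and 0.308% higher, together 2.83%. At an unadjusted p under 0.05, none of the 7 was lower and 1, Spa17, was higher, against 6.68% and 2.01% of all genes. Their log2 fold changes had a median of -0.067, beside 0.032 for all genes tested. The mutant values did not overlap the control values for Fsip1 (1 gene, lower, as in 15.2% of all genes) and Spa17 (1 gene, higher, as in 16.3% of all genes). For the other 5 genes the genotypes overlapped.

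**Figure D2:**
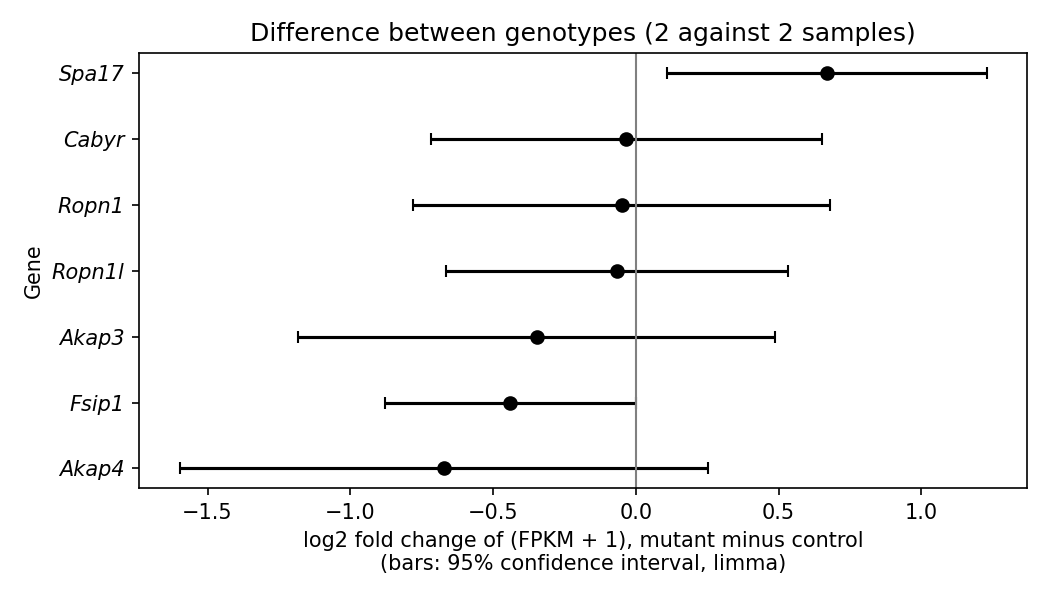
Log2 fold change of (FPKM + 1), mutant minus control, for each of the 7 genes, with its 95% confidence interval from limma on 2 samples per genotype. The intervals of Akap3 and Akap4 are the widest and that of Spa17 lies above 0 before adjustment, where its adjusted p is 0.375.

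Akap4, which encodes the most abundant scaffold of the sheath, had an FPKM of 153 in control 1, 142 in control 2, 55.5 in mutant 1 and 153 in mutant 2. Mutant 1 was at 37.6% of the control mean, whereas mutant 2 was at 103% of it and inside the control range. Between the genotypes the log2 fold change came to -0.67, with a standard error of 0.40 and a 95% confidence interval from -1.60 to 0.25 (adjusted p = 0.930 from limma, and at least 0.0784 in the alternatives that kept all samples). Without mutant 1 the log2 fold change was 0.049, and without mutant 2 it was -1.39 (adjusted p = 9.58e-07 from limma). The latter fit has a single residual degree of freedom and takes mutant 1 to vary as the control samples do, and a value this small is implausible for 3 samples.

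Akap3, the scaffold that is assembled into the sheath together with AKAP4, was at 82.0 in mutant 1, 198 in mutant 2, 173 in control 1 and 153 in control 2. Mutant 1 was the lowest and mutant 2 the highest of the samples, at 50.4% and 122% of the control mean. The log2 fold change came to -0.35, with a standard error of 0.36 and a 95% confidence interval from -1.18 to 0.49 (adjusted p = 1.0 from limma, and at least 0.835 in the alternatives that kept all samples). Leaving out mutant 1 gave 0.28, and leaving out mutant 2 gave -0.98 (adjusted p = 0.00342 from limma, with the same limit as for Akap4). The direction of both scaffold genes therefore rested on which mutant sample was used. In FPKM, Akap4 was at 0.677 of Akap3 in mutant 1, 0.771 in mutant 2, 0.887 in control 1 and 0.929 in control 2, so this ratio was lower in both mutant samples. The ratio was formed after the values were seen and was not tested.

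Among the genes with the docking domain, Ropn1, which encodes ropporin, followed the scaffolds. Its FPKM was 134 in mutant 1, 274 in mutant 2, 214 in control 1 and 184 in control 2, so that the mutant samples lay on either side of the control samples. The log2 fold change came to -0.050, with a standard error of 0.32 (adjusted p = 1.0 from limma), and the 95% confidence interval from -0.78 to 0.68 corresponds to a fold between 0.582 and 1.60. Cabyr, a calcium-binding protein that is phosphorylated on tyrosine as sperm capacitate, was at 109.6 in mutant 1, 214 in mutant 2, 164 in control 1 and 149.7 in control 2. Again mutant 1 was the lowest and mutant 2 the highest sample, and the log2 fold change came to -0.033, with a standard error of 0.29 and a 95% confidence interval from -0.72 to 0.65 (adjusted p = 1.0 from limma). As the log2 ratio of mean FPKM the direction turned for both, to 0.036 for Ropn1 and 0.045 for Cabyr. In FPKM, Cabyr was between 0.768 and 0.819 of Ropn1 in all 4 samples. This ratio was not planned and was not tested.

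Ropn1l, the ropporin relative that was named for its binding to AKAP proteins, did not share the low value of mutant 1. Its FPKM was 940.4 in mutant 1 and 1081 in mutant 2, within the range of 939 to 1187 of the control samples. The log2 fold change came to -0.067, with a standard error of 0.26 and a 95% confidence interval from -0.67 to 0.53 (adjusted p = 1.0 from limma), and it was 0.050 after quantile normalization. The interval corresponds to a fold between 0.630 and 1.45. The FPKM of Ropn1l was 7.03 times that of Ropn1 in mutant 1, 3.94 times in mutant 2, 5.55 times in control 1 and 5.10 times in control 2. The paralogs thus kept no fixed ratio between the mutant samples, and their ratio was not tested.

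Spa17, a sperm surface and tail protein with the same docking domain that is also made in ciliated cells, was the only sheath gene with both mutant samples above both control samples. Its FPKM was 659.7 in control 1, 585 in control 2, 882 in mutant 1 and 1108 in mutant 2. The mutant mean was 160% of the control mean, a log2 fold change of 0.67 (standard error 0.24, 95% confidence interval from 0.11 to 1.23). The unadjusted p was 0.0250 and the adjusted p 0.375 from limma, so the difference was not called. With quantile normalization the adjusted p was 0.0498 from limma, under the threshold, and under the other alternatives it was not called. Relative to Ropn1l, its neighbour in level, Spa17 was at 0.556 in control 1, 0.622 in control 2, 0.938 in mutant 1 and 1.02 in mutant 2. This ratio, too, was not planned and was not tested.

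Fsip1, which encodes a partner of AKAP4 and had the lowest level of the 7 genes, was the only one with both mutant samples below both control samples. Its FPKM was 23.5 in mutant 1, 19.4 in mutant 2, 32.7 in control 1 and 26.2 in control 2. Here mutant 2 was the lower mutant sample, in contrast to the 6 other genes. The log2 fold change was -0.44 (standard error 0.19, 95% confidence interval from -0.88 to 0.0017), with an unadjusted p of 0.0507 and an adjusted p of 0.578 from limma. The gap between mutant 1 and control 2, the nearest samples of the genotypes, was smaller than the gap between the mutant samples.

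Mutant 2 lay well above mutant 1 in 4 of the 7 sheath genes, a pattern noticed after the values were seen and given here as a description. Mutant 2 was at least 1.5-fold above mutant 1 for 4 of the 7 genes, Akap4, Akap3, Ropn1 and Cabyr, and for 9.83% of all genes tested. It was at least 2-fold above for 3 of them and for 5.95% of all genes. The ratio was 2.75 for Akap4, 2.41 for Akap3, 2.05 for Ropn1, 1.95 for Cabyr, 1.26 for Spa17, 1.15 for Ropn1l and 0.824 for Fsip1. Control 1 was between 1.08 and 1.26 times control 2, so no sheath gene reached 1.5-fold there, as 3.49% of all genes did. Mutant 1 was the lowest of the 4 samples for the same 4 genes, as for 17.8% of all genes tested. In the elongating spermatid markers, mutant 2 was above mutant 1 by a median of 2.37 on the log2 scale, in the round spermatid markers by 0.99 and in the 7 sheath genes by 0.96, while the median over all genes was -0.12. The part of these markers in the values of the sheath genes was not tested.

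**Figure D3:**
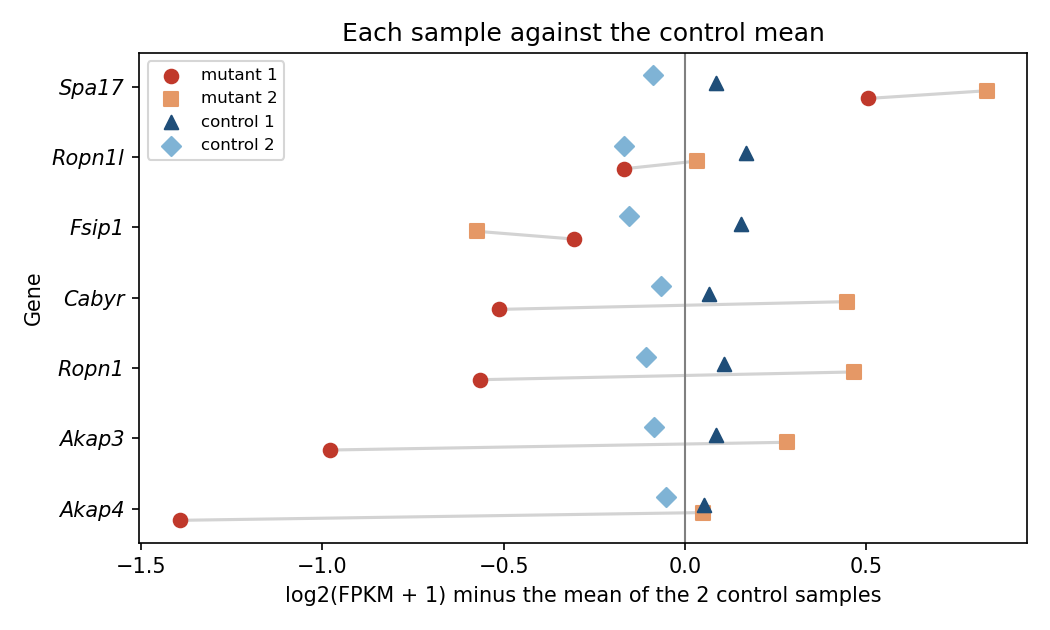
Log2(FPKM + 1) of each sample minus the mean of the control samples, for the 7 genes, with a grey line joining the mutant samples and small vertical offsets to keep points apart. Mutant 1 is at -1.39 for Akap4 and at 0.51 for Spa17, and mutant 2 is above the control mean for 6 genes.

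**Figure D4:**
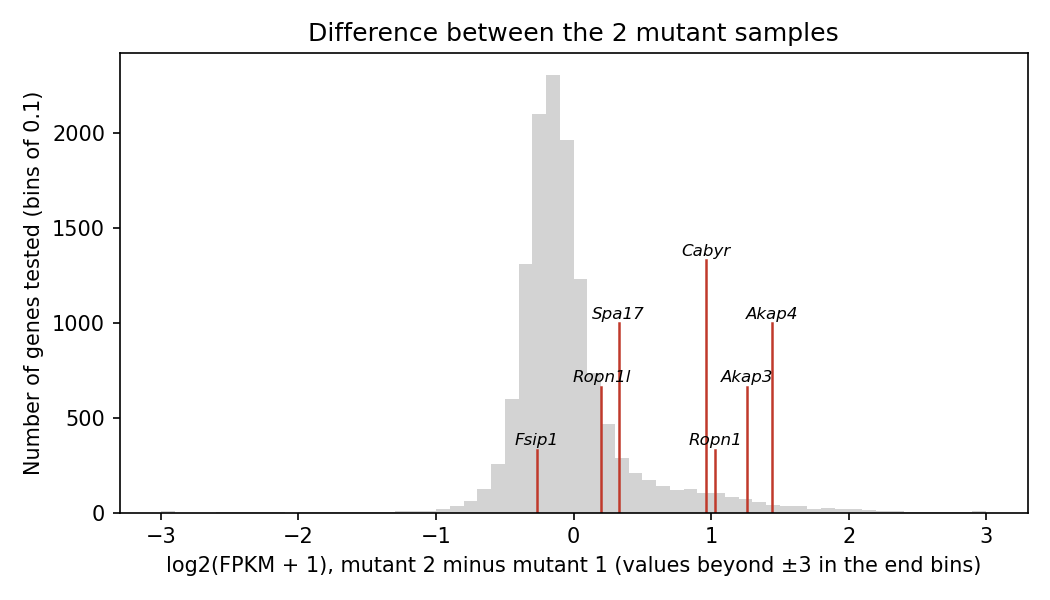
Number of the 12985 tested genes (grey bars, bins of 0.1) by log2(FPKM + 1) in mutant 2 minus mutant 1, with the sheath genes as red lines whose height has no meaning. Akap4, Akap3, Ropn1 and Cabyr lie in the right tail, where 1.73% to 4.56% of genes have a larger value, and Fsip1 lies left of 0.

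Over the 4 samples, the genes most like the mean pattern of the 7, by Euclidean distance between centred log2(FPKM + 1), were 4933427G17Rik (distance 0.024), Gm628 (0.045), Hist3h2bb-ps (0.048), Usp44 (0.054) and Frat2 (0.056). For Usp44 the FPKM was 22.7 in mutant 1, 38.1 in mutant 2, 36.6 in control 1 and 30.4 in control 2. With 4 samples many genes can have such a pattern.

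Other genes linked to the sheath, glycolytic enzymes among them, were examined next and are called partners here. The list held Fscb, Akap14, Rhpn1, Gapdhs, Ldhc, Pgk2, Aldoart1, Aldoart2, Hk1, Eno4, Sord and Slc25a31. Of 12 such genes tested, 2 were lower, none was higher and 10 were not called, where 2.52% of all genes tested were lower and 0.308% higher. The list had a median log2 fold change of -0.54. Aldoart1, a sperm aldolase, fell from 24.5 and 19.1 FPKM in the control samples to 5.94 in mutant 1 and 10.1 in mutant 2 (log2 fold change -1.37, standard error 0.26, adjusted p = 0.0343 from limma). Rhpn1, which encodes rhophilin, the protein to which ropporin binds, fell from 17.3 and 12.9 to 7.12 and 6.31 (log2 fold change -1.05, standard error 0.22, adjusted p = 0.0478 from limma). For 7 of the 12 genes each mutant value was below the lower control value, as for 15.2% of all genes tested. Neither call held with median-ratio scaling, where the adjusted p from limma was 0.174 for Aldoart1 and 0.117 for Rhpn1, and neither held without control 1 (0.366 and 0.459) or without control 2 (0.139 and 0.123). Aldolase genes are close copies of each other, so the share of reads that Aldoart1 received is uncertain. Ldhc, the sperm lactate dehydrogenase, had the highest log2 fold change of the list, 0.021 (adjusted p = 1.0 from limma), and its FPKM was 2379 in mutant 1, 2426 in mutant 2, 2602 in control 1 and 2155 in control 2. Mutant 1 was the lowest sample for 8 of the 12 genes, beside 17.8% of all genes tested.

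The genes of the kinase that AKAP proteins anchor were read in the same way. Of 7 genes for protein kinase A subunits and the soluble adenylyl cyclase, none was called, where 2.52% of all genes tested were lower and 0.308% higher. The median log2 fold change was -0.068. At an unadjusted p under 0.05, 1 of them was lower, beside 6.68% of all genes tested. That gene, Prkar2a, encodes a regulatory subunit that AKAP4 and AKAP3 bind, and had FPKM of 2.92 in mutant 1, 5.77 in mutant 2, 8.91 in control 1 and 8.18 in control 2 (log2 fold change -0.89, standard error 0.29, adjusted p = 0.265 from limma). Without mutant 1 its log2 fold change was -0.50 (adjusted p = 0.891 from limma), and without mutant 2 it was -1.28 (adjusted p = 0.00229 from limma), each with a single residual degree of freedom. Prkar2b, another regulatory subunit, had the highest log2 fold change, 0.11 (adjusted p = 1.0 from limma), and the genotypes overlapped.

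The outer dense fibres, the nearest structure of the tail, run beneath the sheath. Their list was drawn by the symbol Odf, which alone does not show that a gene encodes a fibre component. Of the 7 genes tested, 2 were lower and none was higher, where 2.52% and 0.308% of all genes tested were, and the median log2 fold change was -0.12. Odf1, Odf2, Odf2l and Odf4 were not called, with log2 fold changes of -0.41, -0.068, -0.12 and -0.069. Odf3l1 fell from 59.3 and 60.4 FPKM in the control samples to 8.75 in mutant 1 and 15.5 in mutant 2 (log2 fold change -2.26, standard error 0.25, adjusted p = 0.00222 from limma). Odf3b fell from 3.24 in control 1 and 1.88 in control 2 to 0.119 in mutant 1 and 0.185 in mutant 2 (-1.60 on the log2 scale, standard error 0.23, adjusted p = 0.00859 from limma). The log2 fold change of Odf3b moved with the pseudocount and was -3.36 with 0.1, -3.97 with 0.01 and -4.07 as the ratio of mean FPKM. Its adjusted p from limma was 0.0659 with no filter, 0.0594 with median-ratio scaling and 0.102 with quantile normalization. Odf3 had the highest log2 fold change, 0.16 (adjusted p = 1.0 from limma), with 62.2 in mutant 1, 149 in mutant 2, 96.8 in control 1 and 77.0 in control 2, the same order of the mutant samples as in the sheath scaffolds. Without mutant 1 it was called higher (log2 fold change 0.78, adjusted p = 0.0412 from limma). Mutant 1 was the lowest sample for 6 of the 7, beside 17.8% of all genes tested. Odf3l2 had too low a value to be tested. Whether the lists differ from one another was not tested.

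**Figure D5:**
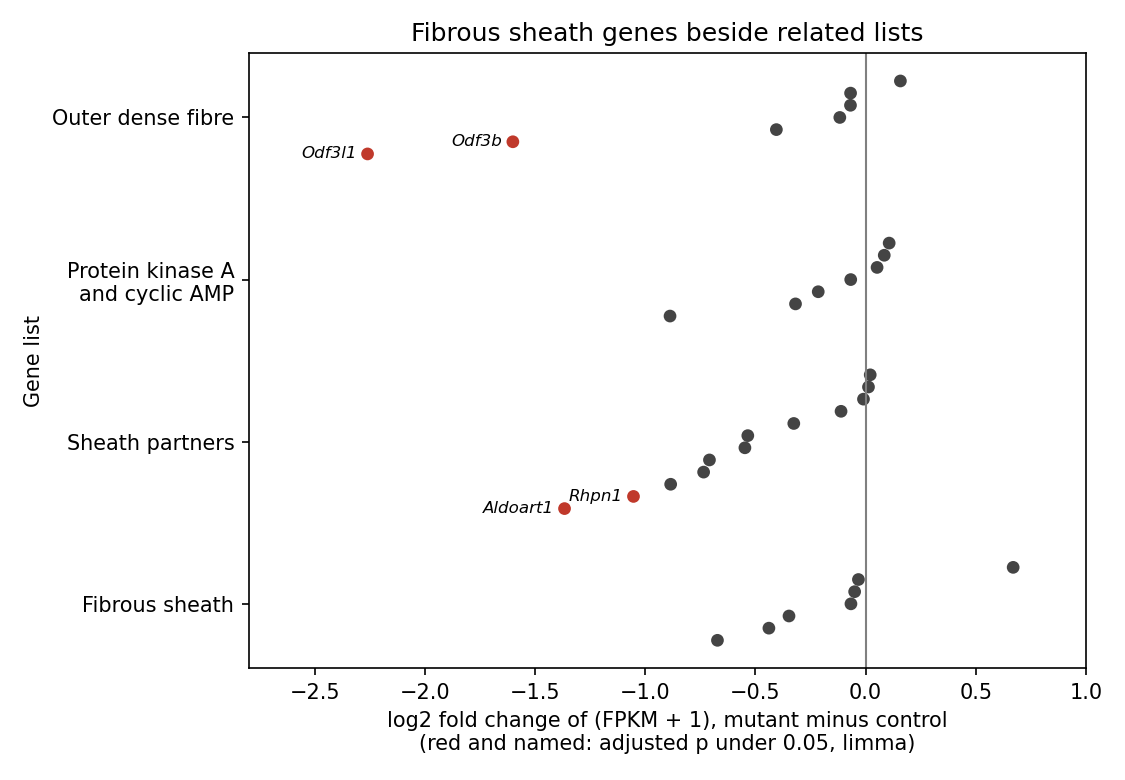
Log2 fold change of (FPKM + 1), mutant minus control, of each tested gene of 4 lists, each point 1 gene, red and named where the adjusted p from limma is under 0.05. No sheath gene is called, and the 4 called genes, Aldoart1, Rhpn1, Odf3b and Odf3l1, lie between -2.26 and -1.05.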

How the data were processed

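RNA-seq of whole testes at postnatal day 24 was used, with 2 mutant and 2 control samples. The authors aligned reads to mm9 with TopHat 2.0.6 and deposited, per the file headers, the FPKM of each gene in each sample with its confidence bounds from Cufflinks. The bounds, taken as 2 standard deviations from the value, correspond to 17.2 to 20.3 M fragments per sample, an estimate that limits the precision of genes with low values. This estimate is not the sequencing depth, and the study's methods state a higher number of reads for every sample.

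Values of entries sharing a symbol were summed and put on the log2 scale with a pseudocount of 1. Any gene that reached an FPKM of 1 in 2 or more samples was tested in limma 3.58.1 under R 4.3.3 (lmFit, eBayes with trend, two-sided, Benjamini-Hochberg adjustment over 12985 genes, threshold 0.05). All 7 sheath genes passed this filter in every sample. Fold changes are on the log2(FPKM + 1) scale, which understates those of low genes. The fit was tested on simulated data. Tables and figures were made with python 3.11.15 and pandas 2.3.3.

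The sheath genes, the other lists and the markers were chosen with earlier results of these data known. Genes named beside them were those of each list with an adjusted p under 0.05 or the highest or lowest log2 fold change, and the 5 nearest in pattern. Settings tried were pseudocounts of 0.1 and 0.01, no filter, a filter at 5, median-ratio scaling, quantile normalization, eBayes without trend, robust eBayes, a replicate block, the highest entry of a symbol in each sample, the ratio of mean FPKM, each sample left out, and, chosen after seeing the data, a crossed replicate block. The study's methods call the 2 samples of a genotype independent biological samples.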

Additional observations from a re-analysis of the deposited data

How the results depend on the processing

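With 2 samples per genotype, a difference that was not called is not shown to be absent. In the alternatives that kept all samples, the only sheath gene called was Spa17, higher with quantile normalization. There, 30 of 12985 genes tested were called higher. With quantile normalization the log2 fold change of Ropn1l was 0.050. With each sample left out in turn, log2 fold changes ran from -0.98 to 0.28 for Akap3 and from -1.39 to 0.049 for Akap4. They ran from -0.57 to 0.47 for Ropn1, from -0.24 to 0.10 for Ropn1l and from -0.51 to 0.45 for Cabyr. The median of the 7 genes ran from -0.51 without mutant 2 to 0.28 without mutant 1. Spa17 stayed between 0.51 and 0.83 and Fsip1 between -0.59 and -0.28. Each such fit has 1 residual degree of freedom and takes the lone sample to vary like the other genotype.

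Of the sheath partners, 0 were lower with no filter, a filter at 5, median-ratio scaling or quantile normalization, 1 with eBayes without trend and 4 with robust eBayes, and from 0 to 6 with a sample left out. Of the outer dense fibre genes, 1 was lower with no filter, a filter at 5, median-ratio scaling or quantile normalization. Of the kinase genes, none was called in the alternatives that kept all samples. The log2 fold change of Ldhc was -1.38e-05 with median-ratio scaling and from -0.12 to 0.16 with a sample left out, that of Prkar2b from -0.17 to 0.39 and that of Odf3 from -0.47 to 0.78. Rfx2 had an adjusted p from limma of 0.0840 with median-ratio scaling and 0.0607 with no filter. The cause of these changes was not tested.

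The replicate block from the labels changed no call of the sheath genes and left 2 lower partners, while 525 of 12985 genes were called lower. Same-numbered samples had a correlation of deviations of -0.15 over 12985 genes. With 2 samples per genotype, this value cannot settle whether the numbers pair the samples. The crossed replicate block gave 0 sheath genes, 1 lower partner and 2 lower outer dense fibre genes, beside 266 lower genes of 12985.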
